A study of Mus musculus with 2 samples.

Results

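The glucocorticoid receptor, the proteins that hold and release it and the genes that answer to it were followed as 10 genes, taken by symbol from the 32285 gene rows of a single-cell RNA sequencing (scRNA-seq) matrix of mouse fetal lung. They were the receptor gene Nr3c1, the co-chaperone genes Fkbp5 and Fkbp4, the enzyme gene Hsd11b1, and the target genes Tsc22d3, Dusp1, Zfp36, Per1, Sgk1 and Errfi1. The choice was made with earlier results of these data known. Each gene was described in every cell class and between litters of dexamethasone (DEX)-treated and phosphate-buffered saline (PBS)-treated mothers.

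Wild type mice, pregnant and 9 weeks old, drank water with DEX at 1.3 µg/ml or with PBS from gestation day 12, and fetal lungs were taken on day 18. DEX is a synthetic glucocorticoid. Lungs were pooled by mother, and the DEX-1 and DEX-2 litters held 8 and 9 fetuses, the PBS-1 and PBS-2 litters 5 and 8. The sort for group 2 innate lymphoid cells (ILC2s) kept live cells with CD45 and ST2 and without lineage markers, and each litter carried its own hashtag antibody, so that all 4 shared 1 gene expression library.

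Without hormone, the glucocorticoid receptor rests in the cytosol in a complex with HSP90, where FKBP51 (the product of Fkbp5) lowers its affinity for hormone and FKBP52 (the product of Fkbp4) favours its passage to the nucleus. Bound receptor turns target genes on by binding DNA as a pair, often at the glucocorticoid response element, and represses inflammatory genes. Several targets feed back: FKBP51 restrains the receptor, and TSC22D3 (GILZ), DUSP1 and ZFP36 restrain inflammatory signalling and cytokine mRNA. In the fetal lung, glucocorticoids are known for driving maturation before birth.

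The 7268 cells with 1 hashtag held 18665955 to 23660294 unique molecular identifiers (UMIs) per litter. ILC2-like cells made up 28.2% of them (2048 cells), although the label of the sample names ILC2 as its cell type. Basophil or mast-like cells made up 38.4% (2791 cells), while 445 cells were epithelial-like, 198 mesenchymal-like, 315 endothelial-like and 199 B-like. Clusters left unnamed held 17.5%, from 14.7% of PBS-1 to 21.4% of PBS-2. The members and the gene lists described further below did not enter the clustering, apart from the cell cycle list, which was not kept out. Levels across classes are CPM, the UMIs of a gene scaled to 1000000 UMIs of the class, given as mean ± SD over the 4 litters, and no class was tested against another because the classes were cut from the same cells.

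Nr3c1 (chromosome 18, 39410545 to 39519421, GRCm38) was highest in ILC2-like cells, at 289.9 ± 23.5 CPM, and next in basophil or mast-like cells, at 271 ± 42.5 CPM. The litter ranges of these classes overlapped, so their order was not settled. Mesenchymal-like cells followed at 212 ± 9.92 CPM, endothelial-like cells at 154 ± 12.2 CPM, epithelial-like cells at 87.0 ± 8.38 CPM and B-like cells at 72.2 ± 23.8 CPM. The mesenchymal-like range also met that of the basophil or mast-like cells, and the epithelial-like range that of the B-like cells, while the other neighbours were apart. After every cell was thinned to 2000 UMIs, a Nr3c1 UMI was found in 44.2% of ILC2-like cells, 38.1% of basophil or mast-like cells, 20.4% of epithelial-like cells and 11.4% of B-like cells (83.9%, 66.3%, 70.6% and 20.1% before thinning).

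The class means hid differences between clusters. In basophil or mast-like cells, Nr3c1 was 379 CPM in the largest cluster, which was led by H19 and Mcpt2, 199.95 CPM in the mast-like clusters and 86.6 CPM in the basophil-like cluster. Among ILC2-like cells it was 366 CPM in the largest cluster, with Gata3 and Il2ra among its leading genes, against 216 CPM in the cluster led by Ccl5 and 239 CPM in the cell cycle cluster. An unnamed cluster of 29 cells, led by Tox and Pde7b, stood apart from all of these. ILC2 was its best-matching type, with a mean marker share of 65.9% against 14.4% for the next type. It was left unnamed only by a depth rule, applied after its level had been seen. Its Nr3c1 level was 3989 and 2264 CPM in the DEX litters and 2858 and 4134 CPM in the PBS litters, and each of its cells held a Nr3c1 UMI. It had a median of 2366 UMIs per cell and rested on 247 Nr3c1 UMIs in all.

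**Figure D1:**
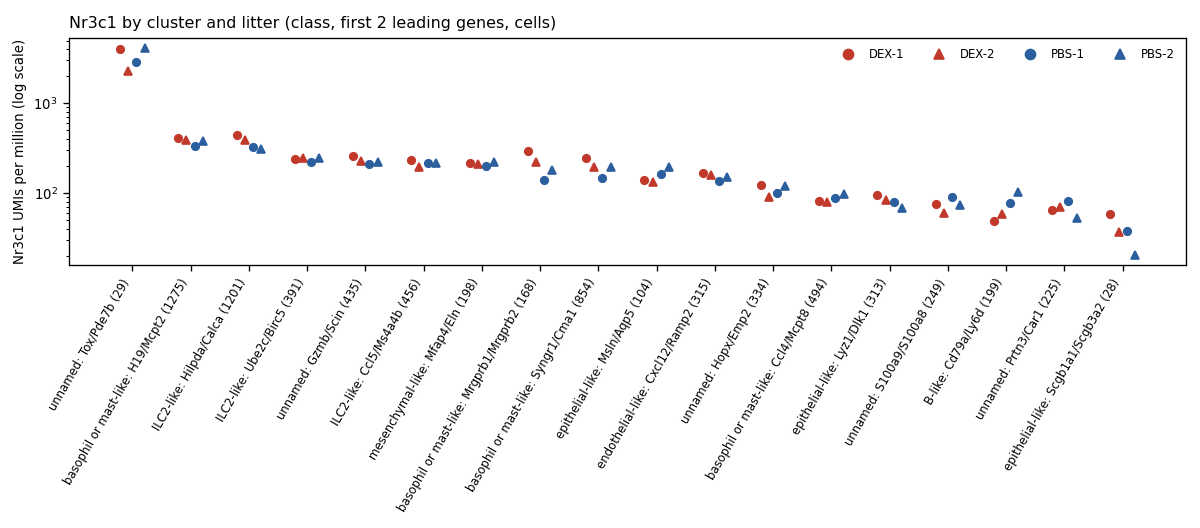
Nr3c1 level in CPM (log scale) in each of 18 clusters and 4 litters, ordered by mean level, with the class name, the first leading genes and the number of cells on the axis. The 29-cell cluster led by Tox and Pde7b lies above 2000 CPM in every litter and no other cluster reaches 500 CPM.

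Fkbp5 (chromosome 17, 28399094 to 28517527), the inhibitory co-chaperone and itself a receptor target, measured 63.4 ± 14.6 CPM in ILC2-like and 59.7 ± 18.0 CPM in mesenchymal-like cells. It was 46.0 ± 8.52 CPM in basophil or mast-like, 24.6 ± 7.07 CPM in endothelial-like and 15.4 ± 3.50 CPM in epithelial-like cells. Only 4 Fkbp5 UMIs were found in all B-like cells. The first 3 of these classes overlapped in their litter ranges, as did the endothelial-like, epithelial-like and B-like cells from one to the next. The mean over cells put mesenchymal-like before ILC2-like cells. Fkbp4 (chromosome 6, 128429735 to 128438677) was ordered otherwise. It was highest in epithelial-like cells, at 202 ± 13.6 CPM, and lowest in basophil or mast-like cells, at 78.3 ± 5.36 CPM, below every other class in all litters. All other neighbours in its order overlapped, with 182 ± 15.9 CPM in B-like, 170 ± 9.32 CPM in ILC2-like, 139 ± 34.1 CPM in mesenchymal-like and 118 ± 14.8 CPM in endothelial-like cells.

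Hsd11b1 (chromosome 1, 193221634 to 193264075) encodes the enzyme that regenerates active glucocorticoid inside cells. It was most abundant in mesenchymal-like cells, at 312 ± 68.2 CPM, and present in endothelial-like cells at 52.1 ± 23.6 CPM and in ILC2-like cells at 36.7 ± 4.33 CPM. The other immune class of similar size differed. Basophil or mast-like cells held 22 Hsd11b1 UMIs over 2791 cells, or 1.08 ± 0.377 CPM, and the mast-like clusters held 2. Epithelial-like cells were at 3.04 ± 2.44 CPM, and B-like cells held 4 UMIs in all. The thinned share of cells with an Hsd11b1 UMI was 7.49% of ILC2-like and 0.0785% of basophil or mast-like cells, and the unthinned shares were 24.6% and 0.609%. Free RNA was read from Col1a1, a collagen gene of the same mesenchymal-like cells. In ILC2-like cells Col1a1 reached 0.151% of its mesenchymal-like level and Hsd11b1 11.9%, while in basophil or mast-like cells the shares were 0.133% and 0.356%. The surfactant gene Sftpc reached 0.251% of its epithelial-like level in ILC2-like and 0.264% in basophil or mast-like cells. Hbb-bs, a red cell gene without a named class of its own, reached 9.68% and 12.1% of its endothelial-like level there. The part of free RNA in the Hsd11b1 values was not tested. Median depth per litter was 6636.5 to 7873 UMIs in ILC2-like cells and 6052 to 6870 UMIs in basophil or mast-like cells.

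Among the targets, Tsc22d3 (chromosome X, 140539528 to 140600659) was highest in B-like cells, at 448 ± 163 CPM, above the range of all other classes. The other classes lay between 171 ± 26.0 CPM in mesenchymal-like and 109.6 ± 13.8 CPM in ILC2-like cells, each overlapping its neighbour. Dusp1 (chromosome 17, 26505590 to 26562128), a phosphatase of MAP kinases, ran from 2643 ± 235 CPM in basophil or mast-like to 143 ± 76.6 CPM in B-like cells. Among neighbours in its order only the endothelial-like and ILC2-like ranges met, and the endothelial-like range also met that of the epithelial-like cells. Zfp36 (chromosome 7, 28376784 to 28380253), whose protein destabilises cytokine mRNA, ran from 3658 ± 524 CPM in mesenchymal-like to 918 ± 95.3 CPM in B-like cells. Per1 (chromosome 11, 69095217 to 69109960), a circadian repressor, ran from 86.7 ± 1.33 CPM in ILC2-like to 48.7 ± 8.14 CPM in epithelial-like cells, and every neighbouring pair of classes overlapped.

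Sgk1 was highest, among the 6 named classes, in endothelial-like cells and Errfi1 in epithelial-like cells. Sgk1 (chromosome 10, 21882184 to 21999903), a kinase that controls ion channels, measured 219.95 ± 38.7 CPM in endothelial-like cells and 106 ± 13.2 CPM in basophil or mast-like cells, each apart from the next class, and 35.5 to 53.2 CPM on average in the other 4. Errfi1 (chromosome 4, 150853919 to 150868892), an inhibitor of the EGF receptor, measured 379.6 ± 67.6 CPM in epithelial-like cells and 154 ± 44.9 CPM in mesenchymal-like cells. The epithelial-like range was apart from all others, while the mesenchymal-like range cleared that of the basophil or mast-like cells and met that of the ILC2-like cells. It was 95.8 ± 18.6 CPM in basophil or mast-like, 91.4 ± 28.2 CPM in ILC2-like and 17.0 ± 5.03 CPM in B-like cells.

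**Figure D2:**
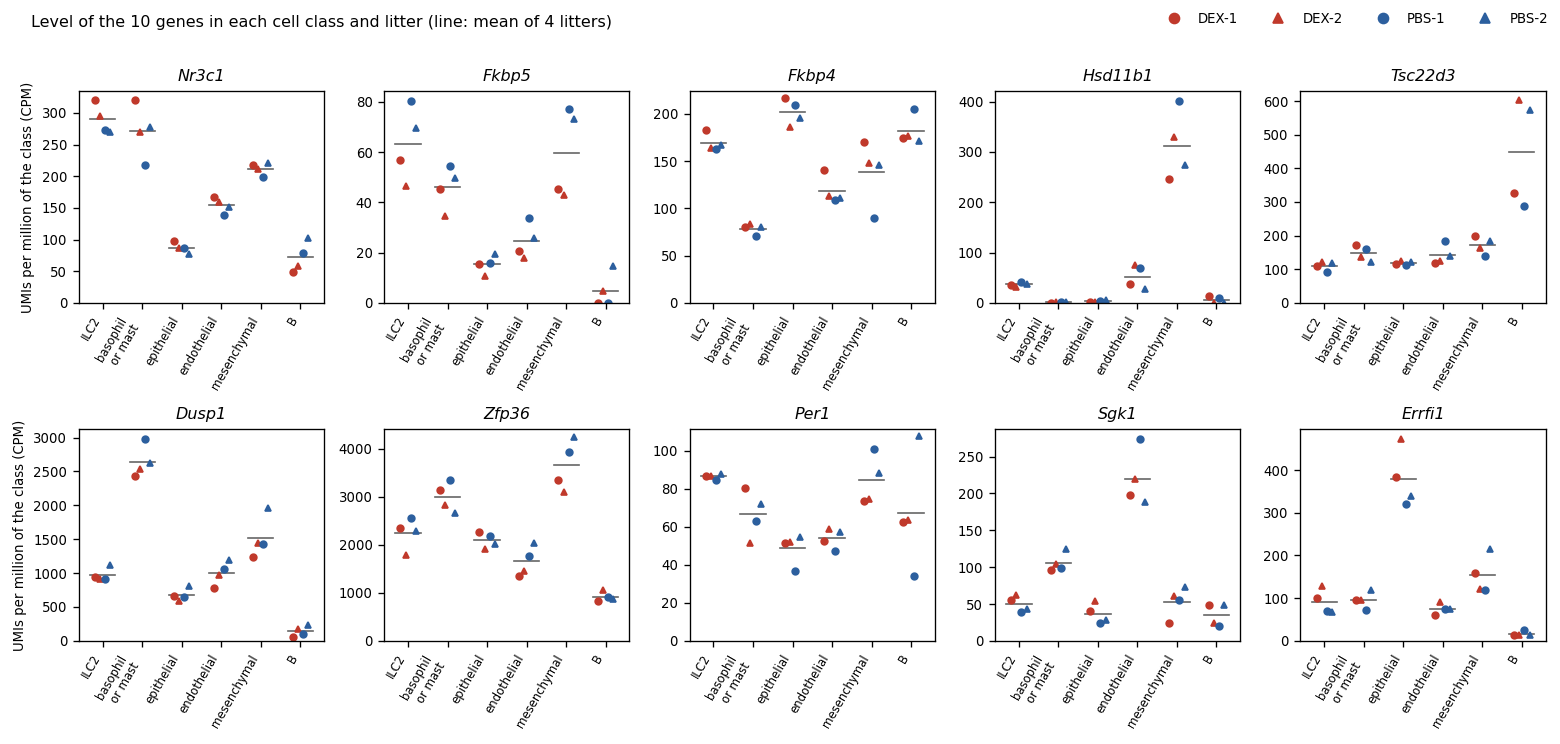
Level of each of the 10 genes (CPM of the class, linear axes from 0) in 6 cell classes, with 1 point per litter (red DEX, blue PBS) and a line at the mean of 4 litters. Hsd11b1 is highest in mesenchymal-like cells at 312 CPM, Sgk1 in endothelial-like, Errfi1 in epithelial-like and Tsc22d3 in B-like cells, and the blue Fkbp5 points lie above the red ones in ILC2-like, endothelial-like, basophil or mast-like and mesenchymal-like cells.

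The 3 genes whose class means followed a member most closely were listed for 9 members among 10424 genes, with Pearson's r of log2(CPM + 1) over the 6 classes. For the receptor gene Nr3c1 they were Eloa, Neurl3 and Csrnp1 (r from 0.991 to 0.994). The co-chaperone gene Fkbp5 was followed by Fosb, Mtr and Ndufa10 (0.987 to 0.9905), and Fkbp4 by Alkbh7, Cpm and Asb13 (0.988 to 0.997). For the enzyme gene Hsd11b1 they were Wdcp, Pygo2 and Pgam1 (0.972 to 0.986). Among the targets, Tsc22d3 was followed by Safb2, Ifi27l2a and Cd72 (0.986 to 0.988), and Dusp1 by the immediate early gene Ier2 and by Ecm1 and Sfmbt1 (0.992 to 0.994). Per1 was followed by Mre11a, Erg28 and Adpgk (0.962 to 0.9898), Sgk1 by Rac1, Atxn7l1 and Ubald2 (0.979 to 0.980), and Errfi1 by Ccpg1os, Rab3d and Acaca (0.986 to 0.992). With 6 points that share libraries and free RNA, these values only describe.

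The comparison of DEX with PBS litters asks whether the receptor, its chaperones and its targets differ in fetal cells after the mother received a glucocorticoid. In ILC2-like cells the targets Errfi1 and Sgk1 were higher in DEX litters and the co-chaperone Fkbp5 was lower, while the other 7 members did not pass. UMIs were summed per litter and tested over the whole gene table by the quasi-likelihood test of edgeR, with a call below an adjusted p of 0.05 (Benjamini-Hochberg). Litter values in the tests are CPM after TMM scaling. The 3 calls among 10 members stand against 2.25% of all genes called in ILC2-like cells (239 of 10637). The members were chosen with earlier results of these data known, so this contrast is not independent of the data. DESeq2 called 1 of the 10 members. With 2 litters against 2, an exact permutation test of a single value cannot give less than p = 0.333, so calls rest on the spread shared across genes.

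Errfi1 measured 100.1 and 130 CPM in litters DEX-1 and DEX-2, and 70.4 and 67.5 CPM in litters PBS-1 and PBS-2. The DEX litters were the higher pair, by 0.73 ± 0.12 on the log2 scale (SE, n = 2 litters each), with an edgeR adjusted p of 0.00515. The share of ILC2-like cells with an Errfi1 UMI, thinned to 2000 UMIs, was 15.8% and 17.3% in the DEX litters and 10.2% and 10.3% in the PBS litters. This call held in all 19 alternatives run, with log2 fold changes from 0.54 to 0.94. A RefSeq promoter window of Errfi1 is shown because Errfi1 carried the clearest difference. It spans chr4:150854820-150855119 on the plus strand (GRCm38.p6), from 250 bases before to 50 after a transcript start, and the capitals mark the cyclic AMP response element TGACGTCA.
Errfi1 promoter: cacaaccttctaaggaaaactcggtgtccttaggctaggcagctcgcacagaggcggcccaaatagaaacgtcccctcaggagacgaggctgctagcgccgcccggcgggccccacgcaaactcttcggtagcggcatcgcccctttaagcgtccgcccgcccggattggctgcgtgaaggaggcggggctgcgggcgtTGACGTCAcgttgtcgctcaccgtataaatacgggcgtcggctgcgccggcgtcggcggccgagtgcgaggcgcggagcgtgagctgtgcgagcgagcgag
That motif, read on both strands, was found in 1.79% of 32851 promoter windows. Among the members it also lay in the window of Dusp1, which was not called. The other Errfi1 window held none of the motifs searched.

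Sgk1 measured 54.9 and 63.3 CPM in the DEX litters, and 38.7 and 43.8 CPM in the PBS litters. The groups did not overlap, the log2 fold change was 0.51 ± 0.12 and the edgeR adjusted p was 0.0456. Without DEX-2 it was 0.40 (edgeR adjusted p = 0.186) and without PBS-1 0.43 (0.150), and DESeq2 gave an adjusted p of 0.322. One of the 6 Sgk1 windows is shown because it holds the palindromic glucocorticoid response element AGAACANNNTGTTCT, which was found in 3 of 32851 windows (0.00913%). It spans chr10:21993640-21993939 on the plus strand (GRCm38.p6). The capitals mark that element, a further half-site TGTTCT and the E-box CACGTG, and the E-box and that half-site overlap.
Sgk1 promoter: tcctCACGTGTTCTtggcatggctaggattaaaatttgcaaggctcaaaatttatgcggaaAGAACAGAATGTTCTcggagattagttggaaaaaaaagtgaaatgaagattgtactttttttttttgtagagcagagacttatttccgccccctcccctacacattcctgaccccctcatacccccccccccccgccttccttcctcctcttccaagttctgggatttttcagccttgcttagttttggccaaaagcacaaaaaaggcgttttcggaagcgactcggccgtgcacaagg
Read on both strands, the half-site, which is contained in the full element, lay in 19% of all windows and the E-box in 7.15%. Among the 18 windows of 9 members, only this one held the full element, and the half-site was found in windows of Sgk1 and Tsc22d3 alone. A match of letters does not show that the receptor binds there.

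Fkbp5 measured 56.8 and 47.6 CPM in the DEX litters, and 79.7 and 70.0 CPM in the PBS litters. Here the DEX litters were the lower pair, the log2 fold change was -0.51 ± 0.11 and the edgeR adjusted p was 0.0364. Without DEX-2 the log2 fold change was -0.40 (edgeR adjusted p = 0.110) and without PBS-1 -0.42 (0.119), and DESeq2 gave an adjusted p of 0.206. The thinned share of cells with a Fkbp5 UMI did not separate the groups, at 13.4% and 7.64% in DEX litters and 11.9% and 14.9% in PBS litters. The Fkbp5 window is shown since Fkbp5 was the member lower in DEX litters. It spans chr17:28486100-28486399 on the minus strand (GRCm38.p6) and holds, of the motifs searched, the E-box, in capitals. The E-box also lay in windows of Sgk1, which was higher in DEX litters, and of Per1 and Dusp1, which were not called.
Fkbp5 promoter: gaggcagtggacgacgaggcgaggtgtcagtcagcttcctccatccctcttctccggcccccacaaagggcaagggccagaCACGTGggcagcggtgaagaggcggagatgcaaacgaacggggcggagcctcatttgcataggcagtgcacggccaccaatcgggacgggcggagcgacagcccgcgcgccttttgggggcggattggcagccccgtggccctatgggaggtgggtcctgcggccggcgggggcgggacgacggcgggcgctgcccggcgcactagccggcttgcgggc

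Beside these 3 members, the litters did not overlap for Nr3c1 and Hsd11b1, which makes 5 of 10, against 42.2% of all genes tested in ILC2-like cells. Nr3c1 measured 320 and 300.9 CPM in DEX litters and 272 and 272 CPM in PBS litters, or 0.19 ± 0.07 on the log2 scale (edgeR adjusted p = 0.264). Hsd11b1 measured 35.6 and 32.2 CPM in DEX-1 and DEX-2 and 41.8 and 37.6 CPM in PBS-1 and PBS-2, with an edgeR adjusted p of 0.575. It was 0.05 in the opposite direction once cells were thinned. Per1 was at 84.3 to 88.7 CPM in all 4 litters, with a log2 fold change of 0.02 ± 0.09 and a 95% interval of -0.18 to 0.21. Fkbp4 (0.08 ± 0.08), Tsc22d3 (0.12 ± 0.12), Dusp1 (-0.13 ± 0.09) and Zfp36 (-0.22 ± 0.10) overlapped between groups and had edgeR adjusted p values from 0.392 to 0.777. When low genes were not filtered out, Zfp36 passed at an edgeR adjusted p of 0.0274, in a fit that called 512 genes against 239 in the main fit. Dusp1 and Zfp36 also belong with genes that answer to tissue dissociation. The summed CPM of 18 tested immediate early genes was 16155 and 16814 in the DEX litters and 17337 and 17462 in the PBS litters, and its part in these values was not tested.

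Within the 3 ILC2-like clusters, levels were compared as plain CPM, with no test. Litters did not overlap for 6 of 10 members in the largest cluster, beside 38.2% of all genes with 10 UMIs per litter on average, for 3 of 10 in the cluster led by Ccl5, beside 37.5%, and for 3 of 10 in the cell cycle cluster, beside 38.3%. Errfi1 was among them each time. In the largest cluster Errfi1 was 119 and 179 CPM in DEX litters against 80.8 and 83.5 CPM in PBS litters, and in the cluster led by Ccl5 it was 97.9 and 94.0 against 40.5 and 69.4 CPM. In the cell cycle cluster it was 80.4 and 83.4 against 75.6 and 43.1 CPM. Sgk1 was 81.1 and 53.4 CPM in DEX against 30.2 and 48.8 CPM in PBS litters in the largest cluster, but the groups overlapped in the other two. Nr3c1 likewise did not overlap in the largest cluster, at 444 and 386 against 327 and 306 CPM, and overlapped in the others. Fkbp5 was lower in both DEX litters in the largest cluster (66.1 and 55.3 against 100.03 and 83.1 CPM) and in the cell cycle cluster (51.3 and 44.4 against 70.6 and 57.8 CPM), not in the Ccl5 cluster (50.2 and 33.3 against 47.9 and 57.5 CPM). The largest cluster held 55.9% and 56.1% of ILC2-like cells in DEX litters and 63.4% and 59.3% in PBS litters, and the part of these shares in the class values was not tested.

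**Figure D3:**
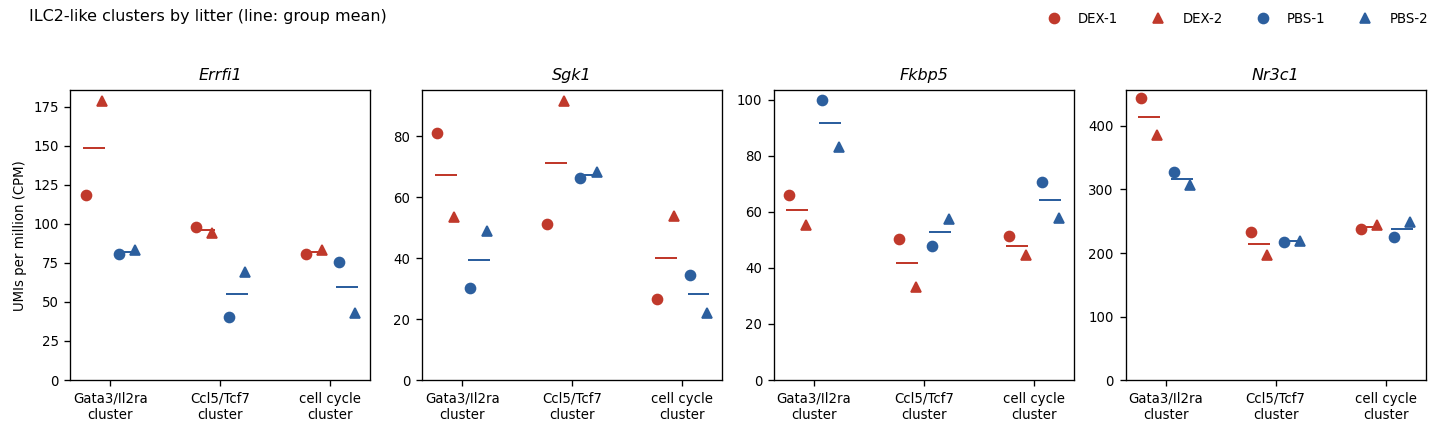
Level in CPM (linear axes from 0) of Errfi1, Sgk1, Fkbp5 and Nr3c1 in the 3 ILC2-like clusters, with 1 point per litter (red DEX, blue PBS) and lines at the group means. Both red Errfi1 points lie above both blue ones in each cluster, and Fkbp5 shows the reverse in the Gata3/Il2ra and cell cycle clusters.

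Fkbp5 was lower on average in DEX litters in all 7 fits that could test it. The mast-like and basophil-like fits reused cells of the basophil or mast-like class, so only 5 of the 7 were separate classes. Dusp1 also had a negative log2 fold change in all 6 named classes, from -0.36 to -0.13, though it was 0.06 in the basophil-like cluster. How many of all genes keep 1 sign over the classes was not computed. Fkbp5 passed in ILC2-like cells alone, and B-like cells held too few UMIs. In basophil or mast-like cells it measured 45.5 and 34.8 CPM in DEX litters against 54.2 and 49.9 CPM in PBS litters, a log2 fold change of -0.38 ± 0.16 (edgeR adjusted p = 0.999). In mesenchymal-like cells it measured 46.5 and 45.5 CPM against 80.6 and 76.9 CPM (-0.77 ± 0.26). In endothelial-like cells it was 21.1 and 18.2 CPM against 33.6 and 26.8 CPM (-0.62 ± 0.29), and with MULTIseqDemux calls the sign turned, to 0.07. The groups overlapped in epithelial-like cells, at 15.8 and 11.3 CPM against 15.8 and 18.9 CPM (-0.39 ± 0.27). The edgeR adjusted p was 1.00 in mesenchymal-like and endothelial-like cells and 0.904 in epithelial-like cells. The classes come from the same litters and were loaded together, so they do not replicate each other.

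Epithelial-like cells showed the same direction as ILC2-like cells for Sgk1 and Errfi1, and neither passed. The size of this class varied with the hashtag calls, and unevenly by litter. With MULTIseqDemux calls PBS-2 held 450 epithelial-like cells against 92 in the main calls, and DEX-1 held 104 against 93. Sgk1 measured 41.8 and 55.9 CPM in DEX litters against 24.1 and 27.5 CPM in PBS litters, or 0.93 ± 0.20 on the log2 scale (edgeR adjusted p = 0.722). Without DEX-1, which left 1 DEX litter, it was 1.11. When low genes were not filtered out, Sgk1 passed at an edgeR adjusted p of 0.00222, in a fit that called 123 genes against 3 in the main fit. Errfi1 measured 391 and 490 CPM against 323 and 331 CPM, or 0.43 ± 0.13, with an edgeR adjusted p of 0.871. In the alveolar type 1-like cluster, which had 17 to 37 cells per litter and was not tested, Sgk1 was 112 and 97.6 CPM in DEX litters against 34.6 and 33.0 CPM in PBS litters. These values rest on sums of only 205895 to 460932 UMIs per litter over all genes. The share of all genes without overlap was not computed there. Over all epithelial-like cells Nr3c1 also did not overlap, at 98.5 and 90.4 against 87.8 and 74.4 CPM (0.22 ± 0.14). These 3 of 9 tested members stand beside 35.7% of all genes whose litters did not overlap in epithelial-like cells, and the called genes were 0.0276% (3 of 10868, none a member). Hsd11b1 was too low to test.

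In basophil or mast-like cells edgeR called 0 of 10918 genes (0%), with 410 at an unadjusted p under 0.05 and 6 called by DESeq2. Litters did not overlap for 3 of 9 tested members, beside 30.5% of all genes: Fkbp5, Fkbp4 (80.4 and 83.6 against 70.4 and 79.9 CPM) and Dusp1 (2453 and 2559 against 2970 and 2624 CPM). The 20 immediate early genes summed to 21252 and 20018 CPM in DEX and 23829 and 22424 CPM in PBS litters, and their part in the Dusp1 values was not tested. Sgk1 (-0.15 ± 0.14) and Errfi1 (-0.0019 ± 0.21) overlapped, and the sign of Errfi1 turned in 7 alternatives that kept all litters. The mast-like clusters gave 0% called (460 genes at an unadjusted p under 0.05, 2 called by DESeq2) and 34.6% of genes without overlap. There Nr3c1 measured 271 and 204 CPM in DEX litters against 142 and 196 CPM in PBS litters, or 0.48 ± 0.19 with an edgeR adjusted p of 0.809. Without DEX-2, which left 1 DEX litter, the log2 fold change of Nr3c1 was 0.68. Fkbp5 was 29.3 and 27.2 against 48.6 and 39.2 CPM there.

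The basophil-like cluster gave 0% called as well (128 genes at an unadjusted p under 0.05, 0 by DESeq2), and 25.4% of genes did not overlap. Its Tsc22d3 measured 130 and 147 CPM in DEX litters against 96.2 and 76.8 CPM in PBS litters, a log2 fold change of 0.67 ± 0.22. Sgk1 measured 107 and 173 CPM against 97.1 and 85.2 CPM (0.63 ± 0.26). Fkbp5 (-0.60 ± 0.40) and Nr3c1 (-0.20 ± 0.21) were lower in both DEX litters. For all of these the edgeR adjusted p was 1.00.

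Endothelial-like cells gave 0% called (337 genes at an unadjusted p under 0.05, 0 by DESeq2) and 32.3% of genes without overlap, against 6 of 10 members. Zfp36 measured 1367 and 1504 CPM in DEX litters against 1762 and 2115 CPM in PBS litters (-0.43 ± 0.13), Dusp1 790 and 998 against 1051 and 1226 CPM (-0.35 ± 0.15) and Tsc22d3 120 and 130 against 183 and 142 CPM (-0.38 ± 0.17). Fkbp5 was lower and Nr3c1 and Fkbp4 higher in both DEX litters. Of 19 immediate early genes 16 had a negative log2 fold change there, with a median of -0.21 against -0.00093 over all genes, and their part in the Zfp36 and Dusp1 values was not tested. None passed, with edgeR adjusted p values of 1.00.

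Mesenchymal-like cells gave 0% called (298 genes at an unadjusted p under 0.05, 0 by DESeq2) and 32.1% of genes without overlap, against 4 of 10 members. Besides Fkbp5, Zfp36 (3440 and 3284 against 4108 and 4460 CPM) and Per1 (75.6 and 79.2 against 106 and 92.8 CPM) were lower in both DEX litters and Fkbp4 (174 and 157 against 94.0 and 154 CPM) was higher. Hsd11b1, the enzyme these cells carry, measured 253 and 349 CPM in DEX litters and 418 and 287 CPM in PBS litters, and the groups overlapped (-0.24 ± 0.25, 95% interval -0.82 to 0.35). The mast cell gene Cpa3 stood at 1737 CPM in mesenchymal-like cells, 22.6% of its level in basophil or mast-like cells, and its part in these values was not tested. In B-like cells 0.213% of 3294 genes were called (7 genes, none a member) and 32.8% did not overlap. Nr3c1 was lower in both DEX litters there, on 7 and 12 UMIs against 16 and 21 UMIs (-0.74 ± 0.40), and 4 of the 10 members were too low to test.

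**Figure D4:**
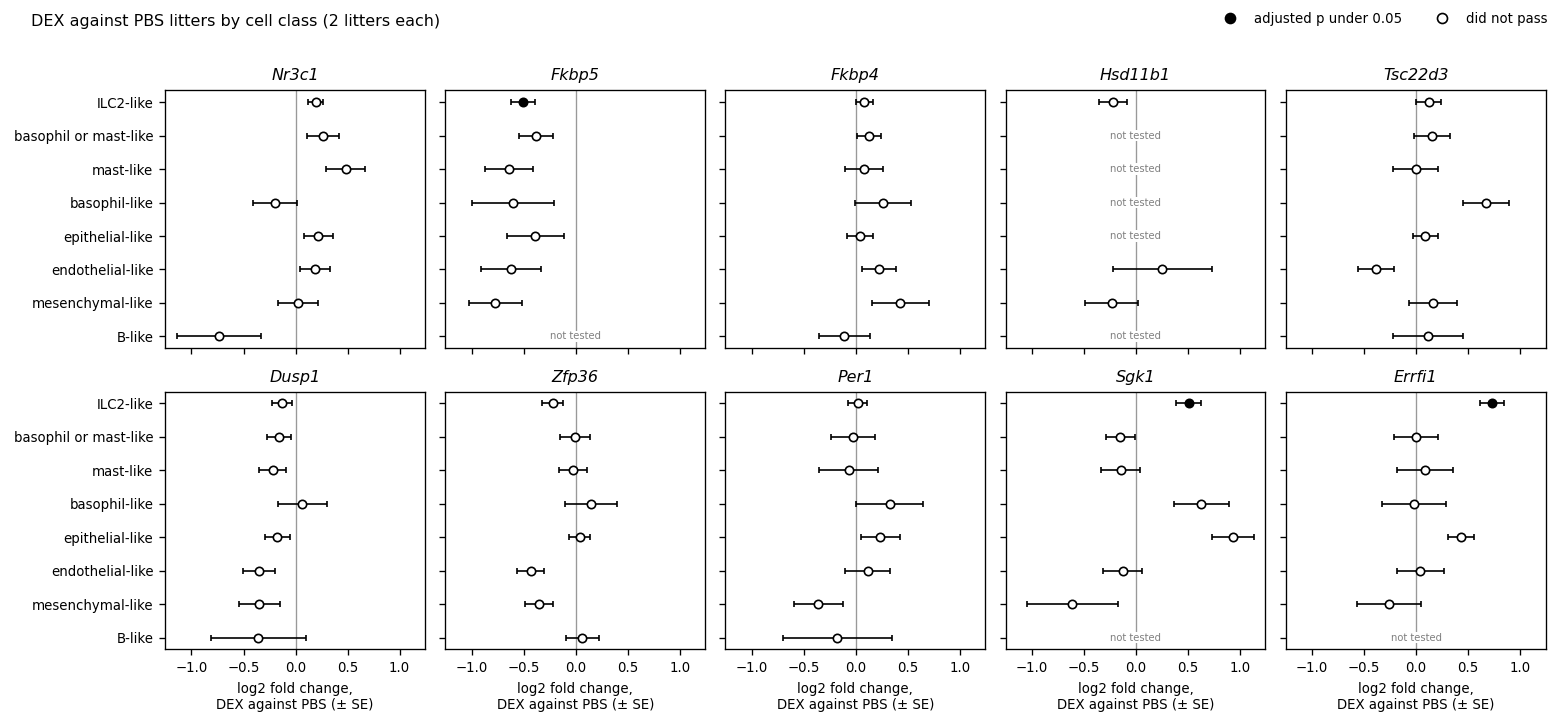
Log2 fold change of DEX against PBS litters with its standard error for the 10 genes in 8 fitted cell classes, from 2 litters per group; the mast-like and basophil-like rows are parts of the basophil or mast-like class. Filled points (Fkbp5, Sgk1 and Errfi1 in ILC2-like cells) passed an adjusted p of 0.05, and Fkbp5 lies left of 0 in all 7 classes tested.

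Whether the DEX difference itself varied by class was tested first as an interaction over the 2 largest classes, basophil or mast-like and ILC2-like, with the litter as a term. Relative to ILC2-like cells, the log2 fold change in basophil or mast-like cells differed by -0.67 ± 0.15 for Sgk1 (95% interval -0.999 to -0.335) and by -0.71 ± 0.23 for Errfi1 (-1.23 to -0.19), and neither passed over all genes (edgeR adjusted p = 0.335 and 0.881). When low genes were not filtered out, Errfi1 passed at an edgeR adjusted p of 0.0138, in a fit that called 79 genes against 4 in the main fit. For Fkbp5 the difference was 0.14 ± 0.16 (-0.21 to 0.49, edgeR adjusted p = 1.00). The called share was 0.0338% (4 of 11819 genes, none a member). Over all 21 pairs of the 7 fitted classes that share no cells, a comparison added after the data were seen, none of 204 member tests passed, with the smallest edgeR adjusted p at 0.481, 25 at an unadjusted p under 0.05, and a called share of 0.0325% over all genes. These tests did not show that the differences in Errfi1, Sgk1 or Fkbp5 were particular to ILC2-like cells.

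The other genes of the pathway were taken as 8 lists. In ILC2-like cells edgeR called 2 of their 131 tested genes (1.53%), beside the 2.25% of all genes, so the lists held no more calls than the background. Of 20 tested receptor targets 1 was called higher, Zbtb16, at 63.6 and 61.1 CPM against 46.6 and 45.9 CPM (0.43 ± 0.10, edgeR adjusted p = 0.0471), a transcription factor of innate lymphoid precursors, and DESeq2 did not call it (adjusted p = 0.528). Of 18 immediate early genes 1 was called lower, Gadd45b, a stress response gene, at 194 and 197 CPM against 255 and 280.5 CPM (-0.46 ± 0.08, edgeR adjusted p = 0.00724), and DESeq2 called it too (adjusted p = 0.00462). Among 16 chaperone machinery genes edgeR called 0 (7 at an unadjusted p under 0.05, 0 by DESeq2), and 14 had a positive log2 fold change, with a median of 0.15 against 0.0039 over all genes. Among 20 cell cycle genes it called 0 (1 at an unadjusted p under 0.05, 0 by DESeq2), and 17 had a negative one, with a median of -0.11. It also called 0 of 8 steroid handling genes, 18 coregulators, 15 circadian clock genes and 16 family paralogs, of which 2, 1, 6 and 6 had an unadjusted p under 0.05 and DESeq2 called 0. Their medians were 0.23, 0.08, -0.08 and -0.01. In each of the other 7 fits edgeR and DESeq2 called 0 genes of these lists, and 4 to 15 list genes had an unadjusted p under 0.05.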

How the data were processed

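Sorted fetal lung cells of 4 litters were profiled in 1 gene expression and 1 hashtag library. The authors mapped reads with Cell Ranger 7 to mm10, as the submitters' processing notes list them, and deposited UMI counts without normalization. Barcodes needed 200 genes and at most 5% mitochondrial UMIs. HTODemux (Seurat 5.3.0) assigned litters. With MULTIseqDemux, an alternative, PBS-2 held 450 epithelial-like and 244 endothelial-like cells, against 92 and 55 with HTODemux. Of the 10409 barcodes kept, 7268 had a single hashtag, 736 had several and were removed as doublets, and 2405 had no hashtag. Doublets within a litter stayed, and an alternative left out 226 singlets with high Scrublet scores.

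Cells scaled to 10000 UMIs were clustered by scanpy 1.11.5 (2000 variable genes, 20 components, 15 neighbours, Leiden resolution 0.5). From this 865 genes were left out, among them the members and all lists except the cell cycle list. Names for the 18 clusters came from marker lists of 16 cell types. To be named, a cluster had to show 3 markers of a type in 25% of its cells and an average share of 30% over that type's markers, with the runner-up type not above 60% of this average and no lead of another type among the top 10 genes. Limits were taken from an earlier analysis of these data. A shallow cluster without an own marker in its top 10 also stayed unnamed, and that rule was applied after the levels of the 29 cells concerned had been seen. Names were thus rebuilt here, and values may differ from the study's for that reason.

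UMIs were summed per class and litter where every litter had 20 cells, and tested two-sided with edgeR 4.0.16 (TMM, filterByExpr). Standard errors were the log2 fold change over the root of its F statistic. DESeq2 1.42.0 and limma-voom 3.58.1 were alternatives. The fits were also run on simulated counts, with the same spread for every gene and larger changes than those of the called members. That run therefore does not speak to calls of the size reported here. Each litter counts as 1 replicate, since hashtags and labels give 2 mothers per group, although 1 legend of the paper reads differently. Same-numbered litters deviated from group means with r from -0.227 to 0.168 over genes and were not taken as pairs. In ILC2-like sums 3 counts equal 0.578 to 0.796 CPM, and in B-like sums 14.7 to 20.9 CPM. Promoter windows (GRCm38.p6, 9 members) come from RefSeq and gene positions from GENCODE M21. Short gene models overlap Fkbp5, Dusp1 and Hsd11b1 on the same strand, and the sources used here do not state the rule for shared or intronic reads.

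The members and lists were chosen with earlier results of these data known. Named are the members, the called genes of each list (at most 4 per class) and the 3 genes most like each member among those at 10 CPM or more in every litter of a class. For Zfp36 the last of these is not reported here.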

Additional observations from a re-analysis of the deposited data

How the results depend on the processing

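In ILC2-like cells the call of Errfi1 held in all 19 alternatives. Fkbp5 and Sgk1 kept their direction in all 19 and their call in 13 each, with log2 fold changes from -0.65 to -0.40 and from 0.37 to 0.61. Besides the losses already given, edgeR adjusted p values for Fkbp5 were 0.535 with thinned cells, 0.0601 without the cell cycle cluster and 0.0528 in cells with a Gata3 UMI. Sgk1 had 0.667 with thinned cells and 0.130 without the cell cycle cluster by edgeR, and 0.0505 by limma-voom. Keeping the 29-cell cluster in the class, an alternative chosen after seeing the data, gave 248 called genes, 234 of them among the 239. With DESeq2, the count of called genes was 113 in ILC2-like, 6 in basophil or mast-like, 5 in epithelial-like, 3 in B-like and 2 in mast-like. With no filter on low genes, the count of called genes was 512 in ILC2-like, 123 in epithelial-like, 3 in endothelial-like, 84 in mesenchymal-like, 91 in B-like, 61 in mast-like, 17 in basophil-like and 79 for the interaction. With cells thinned to 2000 UMIs, the count of called genes was 77 in ILC2-like and 10 for the interaction. With MULTIseqDemux calls, the count of called genes was 7 in epithelial-like, 1 in endothelial-like, 4 in B-like, 3 in mast-like and 0 for the interaction. Leaving out 1 litter at a time gave counts of 26 to 78 in B-like, 0 to 4 in basophil or mast-like, 1 to 18 in basophil-like, 0 to 99 in endothelial-like, 3 to 67 in epithelial-like, 0 to 24 for the interaction, 2 to 107 in mast-like and 49 to 177 in mesenchymal-like. The labels do not say that litters of the same number share a day, so the number served only as an alternative. With the replicate number as a block, 633 genes were called in ILC2-like, 0 in epithelial-like, 2 in endothelial-like, 30 in B-like and 18 in mast-like, and Zfp36 passed in ILC2-like cells at an edgeR adjusted p of 2.7e-05. Crossing the numbers where deviations were opposed, also chosen after seeing the data, gave 186 calls in epithelial-like, 2 in basophil-like and 0 in basophil or mast-like cells. Member log2 fold changes that turned sign, none of them called, are given by alternative. With cells thinned to 2000 UMIs, the value was 0.052 for Hsd11b1, 0.050 for Dusp1 and -0.034 for Per1 in ILC2-like and 0.13 for Sgk1 in basophil or mast-like cells. With the ratio rule for hashtags, the value was -0.0072 for Per1 in ILC2-like and 0.018 for Errfi1 in basophil or mast-like cells. With cycling clusters left out, the value was -0.013 for Per1 in ILC2-like cells. With no filter on low genes, the value was 0.0025 for Zfp36 and 0.0058 for Errfi1 in basophil or mast-like cells. With the replicate block, the value was 0.00093 for Zfp36 and 0.032 for Errfi1 in basophil or mast-like and 0.026 for Tsc22d3 in mast-like cells. With limma-voom, the value was 0.00048 for Zfp36 and 0.040 for Errfi1 in basophil or mast-like cells. With a mitochondrial limit of 10%, the value was 0.0056 for Per1 in basophil or mast-like cells. With DESeq2, the value was 0.0026 for Errfi1 in basophil or mast-like and 0.0062 for Tsc22d3 in mast-like cells. With RLE scaling, the value was 0.0029 for Errfi1 in basophil or mast-like cells. With a stricter filter on low genes, the value was 0.0021 for Errfi1 in basophil or mast-like cells. With MULTIseqDemux, the value was -0.027 for Fkbp4, -0.14 for Tsc22d3 and -0.15 for Zfp36 in epithelial-like, -0.027 for Nr3c1, 0.070 for Fkbp5 and 0.055 for Sgk1 in endothelial-like, -0.21 for Tsc22d3 and 0.29 for Errfi1 in mesenchymal-like, 0.10 for Tsc22d3 and 0.019 for Per1 in mast-like and 0.28 for Errfi1 in basophil-like cells. With thinned cells the interaction turned sign for Nr3c1 (-0.11), Hsd11b1 (-3.17), Tsc22d3 (-0.23) and Per1 (0.0098). Without 1 litter in turn, members changed sign within these ranges. Dusp1 ran from -0.29 to 0.21 for the interaction, -1.39 to 0.39 in B-like, -0.29 to 0.038 in ILC2-like and -0.14 to 0.32 in basophil-like. Fkbp4 ran from -0.044 to 0.15 for the interaction, -0.22 to 0.0021 in B-like, -0.017 to 0.57 in basophil-like, -0.051 to 0.13 in epithelial-like and -0.10 to 0.22 in mast-like. Hsd11b1 ran from -0.57 to 0.85 for the interaction, -0.35 to 1.06 in endothelial-like and -0.48 to 0.062 in mesenchymal-like. Nr3c1 ran from -0.11 to 0.26 for the interaction and -0.063 to 0.13 in mesenchymal-like. Per1 ran from -0.40 to 0.26 for the interaction, -0.79 to 0.88 in B-like, -0.018 to 0.049 in ILC2-like, -0.38 to 0.26 in basophil or mast-like, -0.072 to 0.69 in basophil-like, -0.051 to 0.29 in endothelial-like and -0.62 to 0.40 in mast-like. Tsc22d3 ran from -0.38 to 0.40 for the interaction, -0.40 to 0.72 in B-like, -0.064 to 0.35 in ILC2-like, -0.028 to 0.35 in basophil or mast-like, -0.31 to 0.39 in mast-like and -0.028 to 0.39 in mesenchymal-like. Errfi1 ran from -0.31 to 0.40 in basophil or mast-like, -0.33 to 0.30 in basophil-like, -0.28 to 0.31 in endothelial-like, -0.30 to 0.63 in mast-like and -0.63 to 0.24 in mesenchymal-like. Sgk1 ran from -0.31 to 0.036 in basophil or mast-like, -0.35 to 0.14 in endothelial-like and -0.33 to 0.071 in mast-like. Zfp36 ran from -0.11 to 0.21 in B-like, -0.15 to 0.16 in basophil or mast-like, -0.13 to 0.50 in basophil-like, -0.072 to 0.14 in epithelial-like and -0.10 to 0.050 in mast-like. B-like and mesenchymal-like sums were the shallowest, and their depth limits what could be tested. The cause of these shifts was not tested.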

Other observations

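The clusters left without a name also carried the members, and the values there are means ± SD over the 4 litters in CPM. In cells led by S100a9 and S100a8, genes of neutrophils and monocytes, Sgk1 stood at 229.7 CPM, Fkbp5 at 89.6 ± 20.2 CPM and Hsd11b1 at 22.1 ± 3.09 CPM, with Nr3c1 at 75.1 CPM. In 225 cells led by Prtn3 and Car1, Fkbp4 stood at 423 ± 33.8 CPM, while Nr3c1 was at 67.8 CPM and Errfi1 at 10.9 CPM. Prtn3 encodes a granule protease of neutrophil precursors. In 435 cells led by Gzmb and Scin, Nr3c1 stood at 229 CPM and Hsd11b1 at 2.04 CPM. The 29 cells with 3311 CPM of Nr3c1 had 198 CPM of Per1 and 134 CPM of Fkbp5. These clusters did not enter the main comparisons of DEX with PBS litters.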
